A study of Mus musculus with 16 samples.

Results

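Chaperones and the genes of the unfolded protein response were followed in mouse quadriceps muscle as a list of 39 genes. A gene was taken up where an array probe carried a RefSeq accession that belongs to it, which gave 50 probes. Of the 39 genes, 38 were tested among 21280 genes in all, and Hspa1b had no matching probe. Of the 21280, 14149 had a gene symbol. The rest are array entries without a symbol, which count as genes in every share of all genes below. The list has 22 genes of the endoplasmic reticulum (ER): 14 chaperones and foldases, 3 stress sensors with the factor Xbp1, and 4 genes of ER-associated degradation. The other 17 are heat shock genes: 11 cytosolic genes, Hsf1 included, 4 small heat shock genes and the 2 genes of the mitochondrial chaperonin. All 22 ER genes and 16 of the 17 heat shock genes passed the filter on dim probes, and these 38 are the genes counted below.

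The study arrayed RNA from 16 male mice aged 8 weeks in 4 groups of 4, with 1 array for each mouse. The mice were wild type (WT) or mFoxO1,3,4-/- (mFoxO-TKO), and either had food at all times or were fasted for 24 h in individual cages. In the knockout mice a Cre recombinase under the human α-actin (HSA) promoter removed FoxO1, FoxO3 and FoxO4 from skeletal muscle, so that other cells of the tissue keep these genes. The labels name no agent, and no strain was given in the sources used here. Values below are log2 signals minus the 75th percentile of each array, called relative log2 levels, and changes are differences of their group means with the standard error (SE) of the fit. A gene passed at a Benjamini-Hochberg adjusted p under 0.05 over all 21280 genes. Those p-values measure only the spread between the arrays of a group, 1 for each mouse, which includes any difference between the 2 slides used.

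Proteins that enter the secretory pathway fold in the ER with the help of the Hsp70 chaperone BiP (Hspa5), lectin chaperones and disulfide isomerases. When unfolded protein accumulates there, the sensors Ire1 (Ern1), Perk (Eif2ak3) and Atf6 start the unfolded protein response, which raises chaperone genes and the machinery that pulls misfolded proteins back to the cytosol for the proteasome. The cytosol has its own heat shock response under Hsf1, and muscle fibres hold large amounts of small heat shock proteins that protect the contractile apparatus. Fasting makes muscle degrade protein, and FoxO factors are known as activators of genes for that degradation.

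Both Foxo1 probes and both Foxo4 probes were lower on all knockout arrays than on all WT arrays of the same feeding state. Foxo1 differed by -1.78 and -1.43 in fed and by -3.42 and -2.76 in fasted mice. The Foxo3 probe stood 0.71 higher in fed and 0.78 lower in fasted knockout muscle, which checks nothing here because its place relative to the deleted part is not known. All 10 muscle identity markers were above background on all 16 arrays, and none passed in any comparison in limma, with 2 at an unadjusted p under 0.05 in fasting of the knockout. Of 7 fibroblast markers, 6 fell with fasting in WT and 3 in the knockout. The level summed over the 7, as log2, ran from 8.98 to 9.15 in fed WT, from 8.20 to 8.93 in fasted WT, from 8.69 to 9.29 in fed knockout and from 8.05 to 8.44 in fasted knockout muscle. In WT 1 of 6 endothelial, 1 of 5 macrophage, 1 of 4 adipocyte and 1 of 3 B or plasma cell markers fell. A further adipocyte marker and 1 of 4 Schwann cell markers rose there. That Schwann cell marker was the only 1 of the 4 above 0, and the median change of the 4 was -0.19. In the knockout 3 macrophage markers and 1 adipocyte marker fell and 1 adipocyte marker rose. The array positions put replicates 1 and 2 of all groups on slide 1 of 2, and slide 2 held replicates 3 and 4. On either slide a group had a column of its own, so column and group cannot be told apart. Replicate 1 of the fasted knockout stood apart from the other 15 arrays on the second principal component, at 78.8 against 29.5 for the next array. In bulk muscle, fewer cells of a type and less RNA per cell cannot be told apart.

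Promoters of 6 listed genes are shown, picked with their motifs and their fasting changes known. Each is the 250 bases before the RefSeq start site on the strand of the gene, in build GRCm38.p6, and 31 of the 39 genes had an entry. Capitals mark a match to 1 of 3 motifs. These are the ER stress response element, spelled CCAAT and CCACG with 9 bases of any kind between them, the core TGACGTG of the unfolded protein response element, and the heat shock element. The last is spelled GAA, TTC and GAA, or TTC, GAA and TTC, with NN between the triplets. Both strands were searched. Hspa5 (BiP) lies at chr2:34771840-34772089 on the plus strand, Hsp90b1 (Grp94) at chr10:86705445-86705694 on the minus strand and Syvn1 (the ubiquitin ligase Hrd1) at chr19:6046326-6046575 on the plus strand. Edem1 lies at chr6:108828391-108828640 on the plus strand, Dnajb9 at chr12:44210069-44210318 on the minus strand and Hspe1 at chr1:55087898-55088147 on the plus strand.
Hspa5: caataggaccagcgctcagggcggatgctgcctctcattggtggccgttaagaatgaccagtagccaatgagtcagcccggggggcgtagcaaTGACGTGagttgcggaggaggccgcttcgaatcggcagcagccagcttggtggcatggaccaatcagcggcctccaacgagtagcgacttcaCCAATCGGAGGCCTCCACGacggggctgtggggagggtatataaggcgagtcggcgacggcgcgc
Hsp90b1: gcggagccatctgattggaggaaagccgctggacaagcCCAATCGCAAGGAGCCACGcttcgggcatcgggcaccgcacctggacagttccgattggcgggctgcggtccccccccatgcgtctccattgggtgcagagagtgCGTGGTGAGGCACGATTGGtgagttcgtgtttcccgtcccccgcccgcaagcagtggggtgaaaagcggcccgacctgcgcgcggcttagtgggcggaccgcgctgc
Syvn1: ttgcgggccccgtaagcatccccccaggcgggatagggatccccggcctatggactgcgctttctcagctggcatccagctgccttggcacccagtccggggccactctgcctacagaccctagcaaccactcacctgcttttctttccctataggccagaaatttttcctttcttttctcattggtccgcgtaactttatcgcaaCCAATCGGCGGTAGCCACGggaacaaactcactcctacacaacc
Edem1: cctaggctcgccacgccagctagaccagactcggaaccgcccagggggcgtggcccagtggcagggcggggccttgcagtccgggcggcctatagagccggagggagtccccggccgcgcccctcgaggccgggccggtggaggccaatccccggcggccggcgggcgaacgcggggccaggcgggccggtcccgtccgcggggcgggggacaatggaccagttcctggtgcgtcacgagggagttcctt
Dnajb9: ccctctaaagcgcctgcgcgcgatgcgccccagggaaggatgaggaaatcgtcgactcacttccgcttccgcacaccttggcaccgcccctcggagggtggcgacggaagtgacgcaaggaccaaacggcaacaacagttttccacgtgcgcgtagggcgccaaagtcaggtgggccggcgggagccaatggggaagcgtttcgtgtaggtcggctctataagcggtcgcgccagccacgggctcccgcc
Hspe1: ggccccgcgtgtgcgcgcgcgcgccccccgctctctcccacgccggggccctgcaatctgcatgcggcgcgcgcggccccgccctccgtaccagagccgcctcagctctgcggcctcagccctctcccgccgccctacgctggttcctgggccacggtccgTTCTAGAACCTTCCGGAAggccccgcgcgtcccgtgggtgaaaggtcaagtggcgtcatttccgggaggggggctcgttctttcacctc

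The ER stress response element was found in 8 of the 31 genes with an entry: Hspa5, Hsp90b1, Calr, Canx, Pdia6, Dnajc3, Creld2 and Syvn1. Hsp90b1 held 2 copies. Over all 32851 mouse promoters of the same length the share with this element was 0.113%. The core TGACGTG was found in Hspa5 alone of the 31, and in 1.65% of all promoters. The heat shock element was found in Hspd1 and Hspe1, which share a promoter region, and in 0.466% of all promoters. Its 2 spellings are reverse complements of each other, and matches overlap in Hspe1. The FoxO element GTAAACA was in none of the 31 and in 3.17% of all promoters. Of the 8 genes with the ER stress response element, Syvn1 rose with fasting in WT and the other 7 did not pass. Edem1 and Dnajb9, which had the largest rises in WT, held no exact match to these motifs in the 250 bases. Looser spellings and more distant sites were not searched, and whether any of these motifs acts here was not tested.

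With fasting of WT mice, 3 of 4 genes of ER-associated degradation, 2 of the 4 genes for sensors and Xbp1, and 1 of 14 ER chaperones rose. Of the 38 genes, 10 rose and 1 fell, which is 28.9% against 24.9% of all genes tested, where 12.6% rose and 12.3% fell. The count itself was near that background. The rises were Edem1, Dnajb9, Ern1, Xbp1, Herpud1 and Syvn1 in the ER, and Hspb7, Hspa1a, Hspa4 and Bag3 among heat shock genes, and Pdia4 fell. Hspa4 rose by its brightest probe only, and its dimmer probes fell. In fasted knockout mice 5 of 38 rose and none fell, or 13.2% against 11.1% of all genes (5.23% higher, 5.89% lower), and these 5 were Hspb7, Hspa1a, Dnajb9, Hspa4 and Bag3. The knockout comparison in fasted muscle gave 3 lower genes, Edem1, Dnajb9 and Herpud1, or 7.89% against 12.5% of all genes (5.43% higher, 7.04% lower). In fed muscle limma passed none of the 38 for the knockout, with 1.48% of all genes passing (0.648% higher, 0.832% lower), and 2 of the 38 had an unadjusted p under 0.05. The test of whether fasting acted differently in the knockout passed 2 of 38, Edem1 and Dnajb9, or 5.26% against 2.2% of all genes (0.728% higher, 1.47% lower). These comparisons share groups, so their values are given side by side and not as separate evidence.

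**Figure D1:**
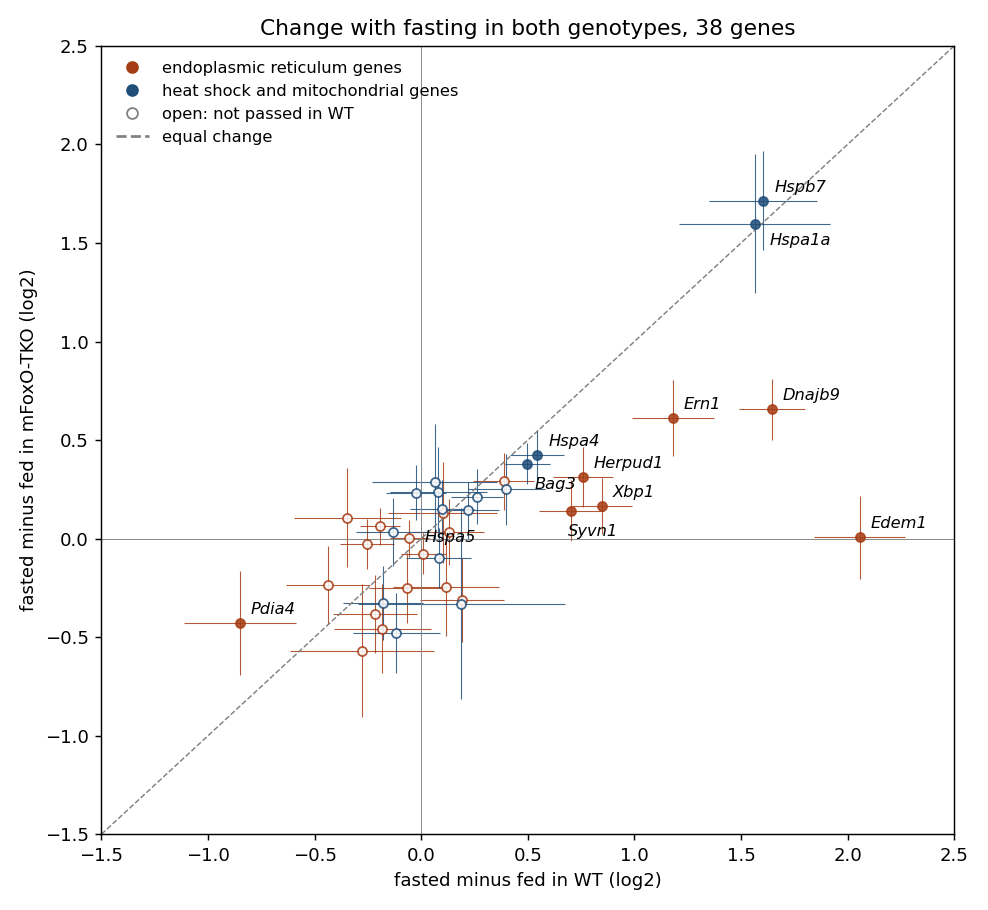
Fasting change of the 38 tested genes, with the change in WT on the x axis and in mFoxO-TKO on the y axis, both as log2 differences with SE bars. Filled points passed in WT and the dashed line marks equal change. Edem1 lies at 2.06 on the x axis and 0.01 on the y axis, while Hspb7 and Hspa1a lie near the line at about equal changes.

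Of the 4 genes of ER-associated degradation 3 rose with fasting in WT, with a median change of 0.73 against -0.02 for all genes. In the knockout none of the 4 passed in limma and none had an unadjusted p under 0.05, with a median of 0.10 against 0.00 for all genes. Edem1 binds glycoproteins whose mannose has been trimmed and hands them over for degradation. Its relative log2 level was 0.24, 0.34, 0.37 and 0.07 in the 4 fed WT mice and 2.74, 2.22, 1.84 and 2.44 in the 4 fasted WT mice. In the knockout it was 0.43, 0.66, 0.29 and 0.15 in fed mice and 0.98, 0.33, 0.02 and 0.22 in fasted mice. All fasted WT arrays lay above all other arrays, and the fed and fasted knockout arrays overlapped. With fasting in WT 14.8% of all genes were higher and 14.3% lower without overlap of the 2 groups. The rise in WT was 2.06 ± 0.21 (SE, n = 4 and 4; adjusted p = 9.28e-06), or 4.16-fold. The change in the knockout was 0.01 ± 0.21 (adjusted p = 0.990). Fasted knockout muscle was 1.92 ± 0.21 below fasted WT muscle (log2 difference -1.92, adjusted p = 2.95e-05). The difference between the fasting changes was -2.05 ± 0.30 (adjusted p = 0.00221). On slide 1 it was -2.08 and on slide 2 -2.01, each without passing in its 8 arrays (adjusted p = 0.271 and 0.0777).

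Herpud1 encodes Herp, a membrane protein that gathers the ligase complex of ER-associated degradation. Its level was 5.23, 5.25, 4.93 and 4.88 in fed WT and 6.10, 5.82, 5.72 and 5.69 in fasted WT mice. It was 4.96, 4.75, 4.66 and 4.61 in fed knockout mice and 5.20, 5.16 and 4.82 in replicates 2 to 4 of the fasted knockout, where the spot of replicate 1 was left out as uneven. The WT groups did not overlap, and neither did the fasted groups of the 2 genotypes, where 9.37% of all genes were lower and 6.59% higher in the knockout without overlap. The rise in WT was 0.76 ± 0.14 (adjusted p = 0.00127), or 1.69-fold, and the change in the knockout was 0.31 ± 0.15 (adjusted p = 0.221). With the slide as a block the latter was 0.36 with adjusted p = 0.0387, which passed. Fasted knockout muscle stood lower by a log2 difference of -0.77 ± 0.15 (adjusted p = 0.00357). The difference between the fasting changes did not pass, at -0.45 ± 0.21 (adjusted p = 0.384).

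Syvn1 encodes Hrd1, the ubiquitin ligase at the core of that complex. Its level was 4.24, 4.35, 4.05 and 4.15 in fed WT and 4.85, 4.82, 4.91 and 5.03 in fasted WT mice. Levels in knockout mice were 4.43, 4.62, 4.16 and 4.22 in fed and 4.88, 4.67, 4.16 and 4.30 in fasted mice. The WT groups did not overlap and the knockout groups did. The rise in WT was 0.70 ± 0.15 (adjusted p = 0.00353), and in the knockout the change was 0.14 ± 0.15 (adjusted p = 0.629). The knockout difference in fasted muscle, -0.40 ± 0.15 (adjusted p = 0.110), did not pass. It passed with the slide as a block (adjusted p = 0.0390) and, at -0.53 (adjusted p = 0.0295), without replicate 1 of the fasted knockout. It was -0.06 on slide 1 and -0.74 on slide 2. Sel1l, the partner that stabilises Hrd1, changed by -0.19 ± 0.09 in WT (adjusted p = 0.153) with no overlap of the groups, against 14.3% of all genes that were lower without overlap.

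**Figure D2:**
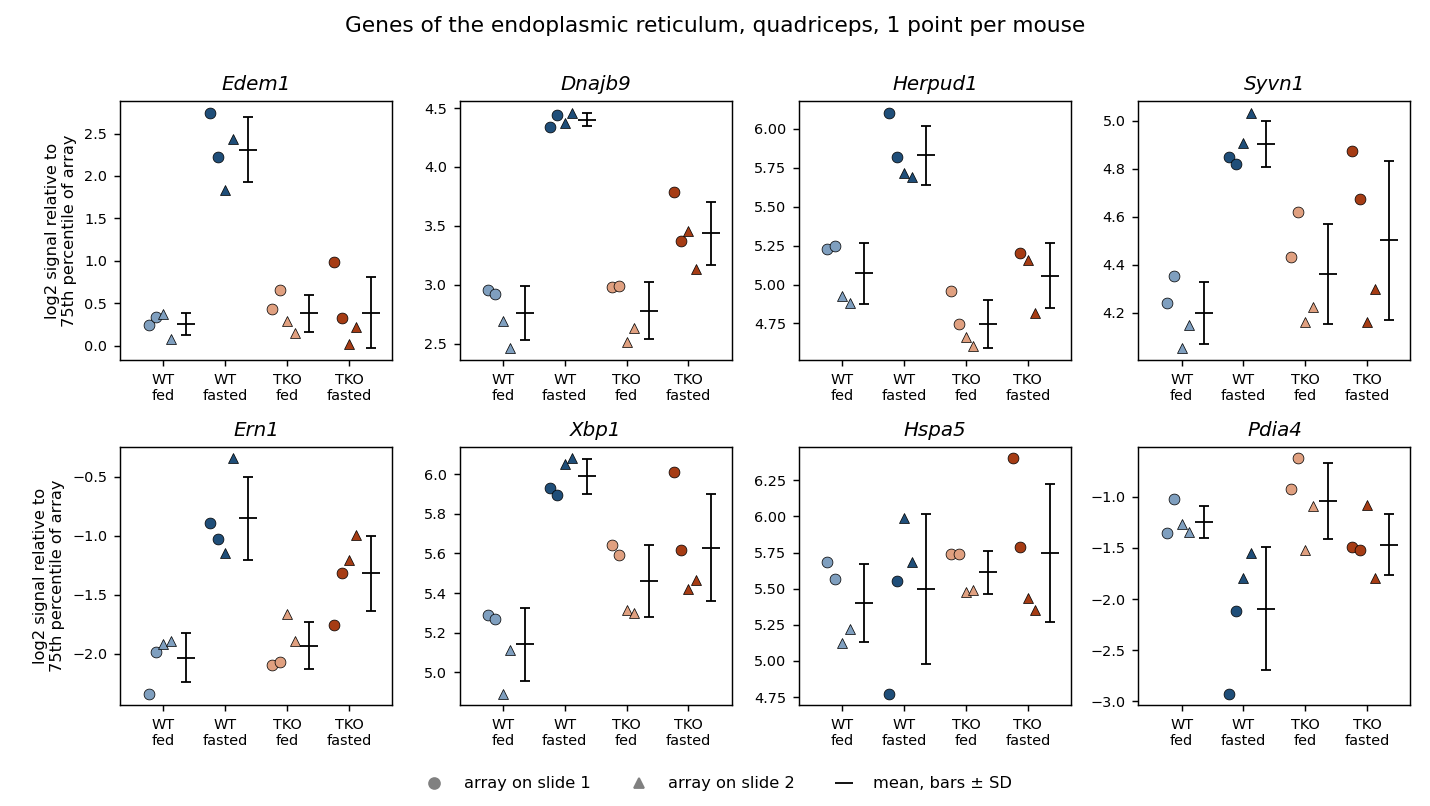
Relative log2 level of 8 ER genes on each array, by group, with circles for slide 1, triangles for slide 2 and bars for the group mean ± SD. Edem1, Dnajb9, Herpud1, Syvn1, Ern1 and Xbp1 are higher on all fasted WT arrays than on all fed WT arrays, and Hspa5 shows fasted WT arrays from 4.77 to 5.99 around the fed ones.

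Among the sensors, Ern1 and its substrate Xbp1 rose with fasting in WT. The 4 genes of this group had a median change of 0.62 in WT and of 0.23 in the knockout, where none passed in limma and 1 had an unadjusted p under 0.05. Ern1 encodes Ire1, a kinase and endonuclease of the ER membrane that splices the Xbp1 message. Its level was -2.34, -1.98, -1.92 and -1.89 in fed WT and -0.89, -1.02, -1.14 and -0.34 in fasted WT mice. It was -2.09, -2.07, -1.66 and -1.89 in fed knockout mice and -1.75, -1.32, -1.21 and -0.995 in fasted knockout mice. The WT groups did not overlap, while replicate 1 of the fasted knockout lay below the highest fed knockout array. The rise was 1.18 ± 0.19 in WT (adjusted p = 0.000414), or 2.26-fold. The change in the knockout was 0.61 ± 0.19 (adjusted p = 0.0547), just outside the threshold, and 0.76 (adjusted p = 0.0186) without replicate 1 of the fasted knockout. On all arrays it passed with the slide as a block (adjusted p = 0.0185) or the replicate number as a block (adjusted p = 0.0195). The difference between these changes was -0.57 ± 0.27 (adjusted p = 0.407).

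Xbp1 encodes the transcription factor that Ire1 splicing turns into its active form. The level was 5.29, 5.27, 4.89 and 5.11 in fed WT and 5.93, 5.89, 6.05 and 6.08 in fasted WT mice. It was 5.64, 5.59, 5.31 and 5.30 in fed knockout mice and 6.01, 5.62, 5.42 and 5.46 in fasted knockout mice. Fed knockout arrays were all above fed WT arrays, as 5.21% of all genes were (4.81% were all below), and replicate 1 of the fasted knockout reached the range of fasted WT. The rise in WT was 0.85 ± 0.14 (adjusted p = 0.000512), or 1.80-fold, and the change in the knockout 0.17 ± 0.14 (adjusted p = 0.530). The fed knockout difference was 0.32 ± 0.14 (adjusted p = 0.389). The difference between the fasting changes was -0.68 ± 0.20 (adjusted p = 0.108), and -0.81 (adjusted p = 0.0274) without replicate 1 of the fasted knockout. With the slide as a block it passed as well (adjusted p = 0.0351). The probe reads total Xbp1 RNA, and splicing was not analysed here.

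The other 2 sensors did not pass. Atf6, a membrane-bound transcription factor that is cut free under stress, differed by 0.39 ± 0.14 in WT (adjusted p = 0.0631) and 0.29 ± 0.14 in the knockout (adjusted p = 0.229). Its WT groups did not overlap, as was so for 14.8% of all genes in the higher direction. With the slide as a block Atf6 passed in WT (adjusted p = 0.0213). Eif2ak3, which encodes the kinase Perk, differed by -0.44 ± 0.20 in WT (adjusted p = 0.130) and by -0.27 without fasted WT replicate 1. All its fasted WT arrays were below all fed ones, as was so for 14.3% of all genes.

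Of the 14 ER chaperones and foldases, Dnajb9 rose and Pdia4 fell with fasting in WT. The median change of the 14 was -0.06 in WT and -0.16 in the knockout. Dnajb9 encodes ERdj4, a cochaperone that works with BiP and binds to Ire1. Its level was 2.96, 2.92, 2.69 and 2.46 in fed WT and 4.34, 4.44, 4.37 and 4.46 in fasted WT mice. In the knockout it was 2.98, 2.99, 2.52 and 2.64 in fed and 3.78, 3.37, 3.45 and 3.13 in fasted mice. The fasted knockout arrays lay between the fed arrays and the fasted WT arrays without overlap on either side. The rise was 1.65 ± 0.16 in WT (adjusted p = 4.70e-06), or 3.13-fold, and 0.66 ± 0.16 in the knockout (adjusted p = 0.0142), or 1.57-fold. Fasted knockout muscle was lower by a log2 difference of -0.97 ± 0.16 (adjusted p = 0.000718).

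The difference between the Dnajb9 changes was -0.99 ± 0.22 (adjusted p = 0.0302), and this call was narrow. It was lost without any 1 of 9 arrays: fasted WT replicate 1 or 4, fed WT replicate 3 or 4, fed knockout replicate 1 or 2, and fasted knockout replicate 2, 3 or 4. Over all 16 fits without an array the value ran from -1.11 to -0.89, with adjusted p up to 0.0724. It also did not pass with normexp background correction (-0.94, adjusted p = 0.0736), with dim probes kept (adjusted p = 0.101) or with the percentile taken after uneven spots were left out (adjusted p = 0.126). A dimmer probe of Dnajb9 gave 1.98 in WT, 0.38 in the knockout and a difference of -1.60 (adjusted p = 0.00393 over all probes). Its knockout change did not pass (adjusted p = 0.206), so the probes differ on whether Dnajb9 rose in the knockout.

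Pdia4 encodes a disulfide isomerase. Its level was -1.35, -1.02, -1.26 and -1.35 in fed WT and -2.93, -2.12, -1.79 and -1.55 in fasted WT mice. It was -0.92, -0.62, -1.52 and -1.09 in fed and -1.49, -1.52, -1.08 and -1.80 in fasted knockout mice. The WT groups did not overlap, with the lowest value in replicate 1, and 14.3% of all genes were lower without overlap. The difference in WT was -0.85 ± 0.26 (adjusted p = 0.0270). It ranged from -1.03 to -0.57 when an array was left out and did not pass without fasted WT replicate 1 or 2 or fed WT replicate 2 or 3 (adjusted p up to 0.0781). It was -1.34 on slide 1 and -0.36 on slide 2. With dim probes kept it did not pass either (adjusted p = 0.0599). In the same comparison 6 of 7 fibroblast markers fell, with the summed levels given above and none of the 7 below background, and their part in this difference was not tested.

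Hspa5, the gene of BiP and the usual reporter of the unfolded protein response, did not pass in any comparison. Its level was 5.68, 5.57, 5.12 and 5.22 in fed WT and 4.77, 5.55, 5.99 and 5.68 in fasted WT mice. It was 5.74, 5.74, 5.48 and 5.49 in fed and 6.40, 5.79, 5.44 and 5.35 in fasted knockout mice. The groups overlapped throughout, with both the lowest and the highest array of the gene among the fasted mice. The change was 0.10 ± 0.26 in WT (adjusted p = 0.836) and 0.13 ± 0.26 in the knockout (adjusted p = 0.814). Within slide 1 the WT change was -0.46 (adjusted p = 0.415) and within slide 2 it was 0.66 (adjusted p = 0.0206).

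This split between slides ran through the chaperone group. On slide 1, 11 of 13 ER chaperones and foldases were lower in fasted than in fed WT mice, with a median of -0.46. On slide 2, 11 of 14 were higher, with a median of 0.17. Manf, a secreted ER protein, was at -0.57 on slide 1 and 0.80 on slide 2, and Sdf2l1, a partner of BiP complexes, at -1.02 and 0.47. Replicate 1 was the lowest of the 4 fasted WT arrays in 11 of the 14 genes, and replicate 3 the lowest of the fed WT arrays in 11. Without fasted WT replicate 1 the median over the 14 genes was -0.04, with Hspa5 at 0.34 and Pdia4 at -0.57. The median of the group thus differed in sign between the slides, whereas Edem1, Dnajb9, Ern1, Xbp1 and Syvn1 were higher in fasted WT mice on both slides.

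In fed muscle 13 of the 14 ER chaperones and foldases were higher in the knockout than in WT, with a median of 0.21 against -0.01 for all genes. None passed in limma and none had an unadjusted p under 0.05. The counts were 12 of 13 on slide 1 and 13 of 14 on slide 2, and the median was 0.12 without fed WT replicate 3. Dnajb11, another BiP cochaperone, differed by 0.15 ± 0.10 (adjusted p = 0.725). Its groups just failed to overlap, at 3.106 for the lowest fed knockout array and 3.100 for the highest fed WT array. Without overlap 5.21% of all genes were higher here. In the same comparison 5 of 5 measured macrophage markers were higher, with a median of 0.89, none passing in limma and 3 at an unadjusted p under 0.05. Their summed level, as log2, ran from 3.49 to 4.19 in fed WT and from 4.01 to 5.06 in fed knockout muscle, and Cd163 of that list was not kept. Their part in the chaperone values was not tested.

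In fasted muscle 11 of the 14 were higher in the knockout, with a median of 0.09, and the 1 that passed, Dnajb9, was lower. The direction turned between slides, with 12 of 13 higher and a median of 0.32 on slide 1, and 4 of 14 higher and a median of -0.17 on slide 2. Without replicate 1 of fasted WT, or replicate 1 or 2 of the fasted knockout, 8 of 14 were higher and the median was 0.01, 0.01 and 0.02. Of the macrophage markers 5 of 5 were higher here too and 1 passed, with summed levels from 3.31 to 3.65 in fasted WT and from 3.23 to 4.43 in fasted knockout muscle, and their part was not tested. Hyou1, an ER chaperone of the Hsp110 family, differed by 0.73 ± 0.25 (adjusted p = 0.0727) and by 0.44 without replicate 3 of the fasted knockout, and it passed without replicate 4 (0.91, adjusted p = 0.0347). Its probe was well above background on 3 of the 4 fasted WT arrays.

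The 11 ER chaperones and foldases besides Dnajb9, Pdia4 and Hspa5 had fasting changes from -0.35 to 0.19 in WT and from -0.57 to 0.11 in the knockout. Replicate 1 of the fasted knockout had no value for Hsp90b1.

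Genes of the same pathways outside the 39 were counted from 6 further lists. Among 18 other signalling genes of the unfolded protein response, 9 rose and 2 fell with fasting in WT, and 3 rose and 2 fell in the knockout. These are 61.1% against 24.9% of all genes and 27.8% against 11.1%. For the knockout in fasted muscle 1 was higher and 4 were lower, or 27.8% against 12.5%. The fasting changes differed between genotypes in 4, or 22.2% against 2.2%. Ppp1r15a, which encodes the phosphatase subunit Gadd34 that ends the Perk signal, had levels of 3.14, 3.63, 3.03 and 2.70 in fed WT and 5.91, 5.54, 5.24 and 5.47 in fasted WT mice. In fasted knockout mice it stood at 3.96, 3.67, 3.46 and 3.31, below every fasted WT array. It rose by 2.42 ± 0.22 in WT and 0.95 ± 0.22 in the knockout, with a difference of -1.47 ± 0.31 (adjusted p = 0.0214). Trib3, a pseudokinase induced by the Perk branch, rose by 2.21 ± 0.29 and 1.20 ± 0.29, with no passing difference (-1.01 ± 0.41, adjusted p = 0.287). Nfe2l2, the antioxidant factor Nrf2, rose by 1.60 ± 0.15 and 0.50 ± 0.14, with a difference of -1.10 ± 0.21 (adjusted p = 0.0146). Creb3l1, an ER-bound factor related to Atf6, fell by 0.96 in WT and by 0.85 in the knockout. Atf6b, the relative of Atf6, rose by 0.34 in WT and fell by 0.40 in the knockout, and the difference passed at -0.74 ± 0.15 (adjusted p = 0.0183). Bax, a mitochondrial cell death gene, rose by 0.55 in WT and the difference of its changes passed at -0.77 ± 0.15 (adjusted p = 0.0149). The stress factor Ddit3 (Chop), named here after its values were seen, differed by -0.53 ± 0.20 in WT (adjusted p = 0.0658).

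Among 21 other genes of ER degradation, 4 rose and none fell with fasting in WT, and 2 rose in the knockout. These are 19.05% against 24.9% of all genes and 9.52% against 11.1%, so neither count exceeded the background. The 4 were Nploc4 at 1.11 ± 0.21 and Faf2 at 1.09 ± 0.19, which both work with the segregase p97, Herpud2 at 0.93 ± 0.10, and the conjugating enzyme Ube2g2 at 0.72 ± 0.11. Faf2 and Herpud2 also passed as lower in fasted knockout than in fasted WT muscle, by log2 differences of -0.89 and -0.85. Their fasting changes differed between genotypes by -1.21 ± 0.26 (adjusted p = 0.0268) and -0.78 ± 0.14 (adjusted p = 0.00755). These 2 genes are 9.52% of the list, against 12.5% and 2.2% of all genes in these 2 comparisons. Ube2g2 rose by 0.72 in the knockout as well.

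Among 34 other ER folding genes, 2 rose and 8 fell in WT, and none rose and 9 fell in the knockout. These are 29.4% against 24.9% of all genes, near the background, and 26.5% against 11.1%. Those with the largest falls were Serpinh1, the collagen chaperone Hsp47, at -1.42 ± 0.25 in WT and -1.15 ± 0.25 in the knockout, and the prolyl isomerase Fkbp14 at -1.21 and -1.04. Pdia5, a disulfide isomerase, stood at -1.02 and -0.98, and Fkbp10, a prolyl isomerase for collagen, at -0.83 and -0.94. Serpinh1 levels were 4.15, 4.62, 3.82 and 4.20 in fed WT and 2.43, 3.16, 2.45 and 3.09 in fasted WT mice. The groups did not overlap. The collagen genes Col1a1 and Col3a1 of the fibroblast list fell in the same comparison, with changes of -1.10 and -2.02, and the part of fibroblasts in these falls was not tested. None of the 34 passed in the test of the difference between genotypes in limma, and 4 had an unadjusted p under 0.05.

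**Figure D3:**
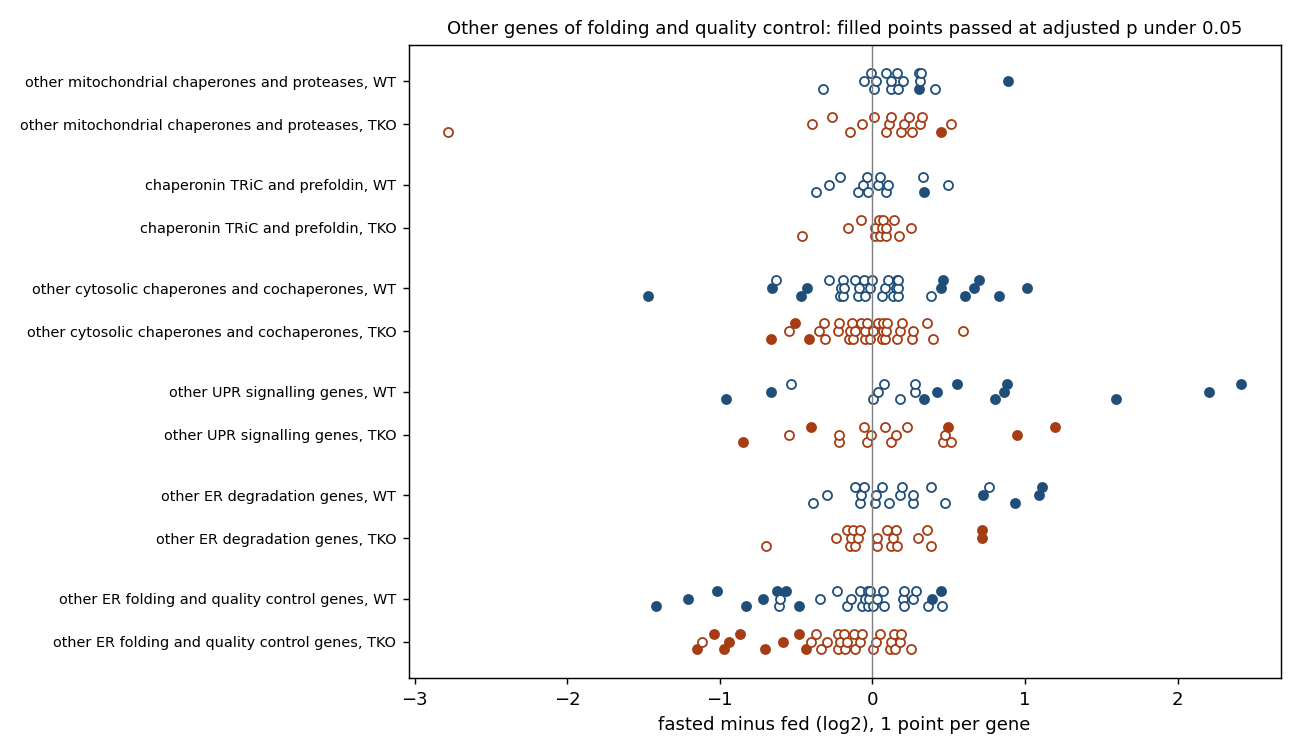
Fasting change of the pathway genes outside the 39, by list, in WT and in mFoxO-TKO, as log2 differences, with filled points for genes that passed. Signalling genes reach 2.42 in WT, and passing genes of the ER folding list lie mostly below 0 in both genotypes.

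By their brightest probes the same 4 heat shock genes rose in both genotypes. The dimmer probes of Hspa4 fell in WT and did not pass in the knockout. Of 16 tested, 4 rose with fasting in WT and 4 in the knockout, namely Hspb7, Hspa1a, Hspa4 and Bag3 in each. That is 25% against 24.9% of all genes in WT, the same as the background, and 25% against 11.1% in the knockout. Their median change over the 16 was 0.14 in WT and 0.22 in the knockout. By their brightest probes none of the 16 passed in limma for the knockout in fed muscle, for the knockout in fasted muscle or for the difference between the fasting changes, and none had an unadjusted p under 0.05 in these comparisons. Hspb7 encodes a small heat shock protein of heart and skeletal muscle. Its level was 3.38, 3.22, 3.82 and 3.02 in fed WT and 5.05, 5.39, 4.47 and 4.95 in fasted WT mice. It was 3.60, 3.23, 3.17 and 3.55 in fed and 5.74, 5.21, 4.96 and 4.50 in fasted knockout mice. The fasted arrays of each genotype were all above all fed arrays. In the knockout 8.75% of all genes were higher and 8.55% lower with fasting without overlap. The rise was 1.61 ± 0.25 in WT (adjusted p = 0.000315), or 3.04-fold, and 1.72 ± 0.25 in the knockout (adjusted p = 0.000811), or 3.28-fold. The difference between them was 0.11 ± 0.36 (adjusted p = 0.944).

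Hspa1a encodes the inducible Hsp70 of the cytosol. Its level was -1.10, -1.45, -0.72 and -0.87 in fed WT and 0.00, -0.07, 0.50 and 1.68 in fasted WT mice. Levels in knockout mice were -1.63, -1.67, -1.28 and -1.70 in fed and 0.21, -0.81, 0.64 and 0.07 in fasted mice. Fed and fasted groups did not overlap in either genotype, and replicate 4 of fasted WT was the highest array. The rise was 1.56 ± 0.35 in WT (adjusted p = 0.00452) and 1.60 ± 0.35 in the knockout (adjusted p = 0.00966), or 2.96-fold and 3.03-fold. The difference was 0.03 ± 0.50 (adjusted p = 0.988). Hspa1b is a near-identical copy, so the probe may read both genes and the value of Hspa1a alone is uncertain.

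**Figure D4:**
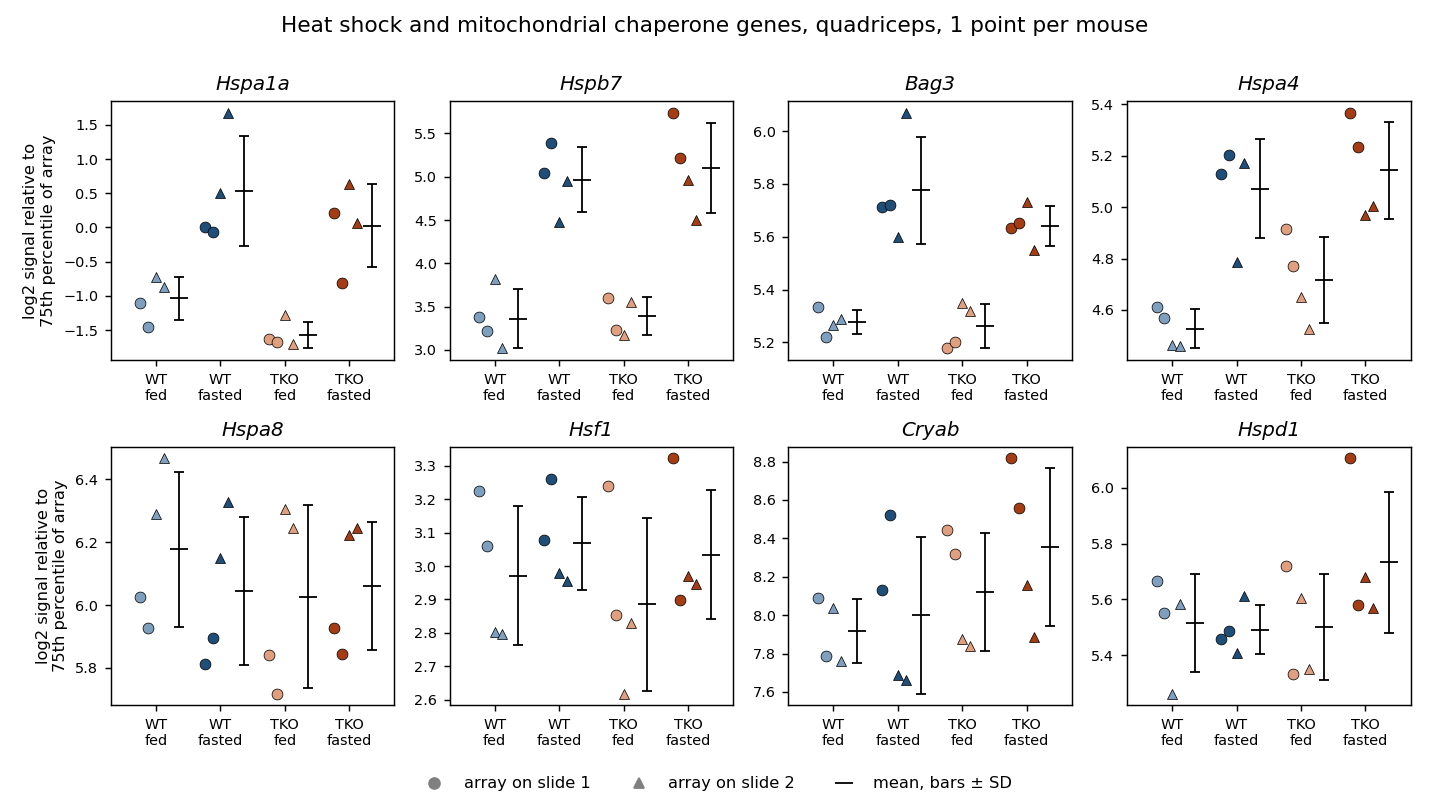
Relative log2 level of 8 heat shock genes on each array, by group, with circles for slide 1, triangles for slide 2 and bars for the group mean ± SD. Each gene is shown by its brightest probe. Hspb7, Hspa1a, Hspa4 and Bag3 are higher on all fasted than on all fed arrays of each genotype. Hsf1, Hspa8, Cryab and Hspd1 overlap.

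Bag3 encodes a cochaperone that links Hsp70 and small heat shock proteins to autophagy in muscle. Its level was 5.33, 5.22, 5.26 and 5.29 in fed WT and 5.71, 5.72, 5.60 and 6.07 in fasted WT mice. It was 5.18, 5.20, 5.35 and 5.32 in fed and 5.63, 5.65, 5.73 and 5.55 in fasted knockout mice. No fasted array fell to the level of a fed one in either genotype. The rise was 0.50 ± 0.10 in WT (adjusted p = 0.00267) and 0.38 ± 0.10 in the knockout (adjusted p = 0.0301). The latter did not pass without fed knockout replicate 1 or 2 or fasted knockout replicate 2 or 3 (adjusted p up to 0.0864), nor after quantile normalization (0.30, adjusted p = 0.121).

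Hspa4 encodes an Hsp110-type exchange factor for Hsp70. Its brightest probe stood at 4.61, 4.57, 4.47 and 4.46 in fed WT and at 5.13, 5.20, 4.79 and 5.17 in fasted WT mice. The knockout mice had 4.91, 4.77, 4.65 and 4.53 in fed and 5.37, 5.23, 4.97 and 5.0 in fasted mice. The fed and fasted groups of each genotype did not overlap. That probe rose by 0.54 ± 0.13 in WT (adjusted p = 0.00537) and 0.43 ± 0.13 in the knockout (adjusted p = 0.0429). The knockout call was lost in 11 of the 16 fits that left out an array, with adjusted p up to 0.115, and was kept without fasted WT replicate 1, 2 or 3, fed knockout replicate 1 or fasted knockout replicate 3. The other 2 probes of Hspa4 fell in WT, by 0.49 and 0.47 (adjusted p = 0.0364 and 0.00481 over all probes), and the mean of the 3 probes changed by -0.14. Those 2 probes were also higher in fasted knockout than in fasted WT muscle, by 0.59 and 0.38 (adjusted p = 0.0260 and 0.0298), where the brightest probe differed by 0.07 (adjusted p = 0.792). The direction of fasting in WT and the knockout call in fasted muscle thus depended on the probe for Hspa4.

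Hsf1 and the abundant chaperones Hspa8, Cryab and Hspd1 did not pass in any comparison. Hsf1, the transcription factor of the heat shock response, was at 3.22, 3.06, 2.80 and 2.80 in fed WT and at 3.08, 3.26, 2.98 and 2.96 in fasted WT mice. In the knockout it was at 3.24, 2.85, 2.62 and 2.83 in fed and at 3.32, 2.90, 2.97 and 2.95 in fasted mice. Its change was 0.10 ± 0.15 in WT (adjusted p = 0.710) and 0.15 ± 0.15 in the knockout (adjusted p = 0.60). Hspa8, the constitutive Hsc70, was at 6.03, 5.93, 6.29 and 6.47 in fed WT and at 5.81, 5.89, 6.15 and 6.33 in fasted WT mice. Levels in knockout mice were 5.84, 5.72, 6.30 and 6.24 in fed and 5.93, 5.84, 6.22 and 6.24 in fasted mice. Slide 2 arrays were higher than slide 1 arrays of the same group in every group, and the fasting change in WT was -0.13 ± 0.17 (adjusted p = 0.652).

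Cryab, the αB-crystallin of the Z-disc, was at 8.09, 7.79, 8.04 and 7.76 in fed WT and at 8.13, 8.52, 7.69 and 7.66 in fasted WT mice. The knockout mice had 8.44, 8.32, 7.88 and 7.84 in fed and 8.82, 8.56, 8.16 and 7.89 in fasted mice. The groups overlapped, with a change of 0.08 ± 0.23 in WT (adjusted p = 0.854) and 0.24 ± 0.23 in the knockout (adjusted p = 0.588). Hspd1, the mitochondrial Hsp60, was at 5.66, 5.55, 5.26 and 5.58 in fed WT and at 5.46, 5.49, 5.41 and 5.61 in fasted WT mice. In the knockout it was at 5.72, 5.33, 5.60 and 5.35 in fed and at 6.11, 5.58, 5.68 and 5.57 in fasted mice. The change was -0.02 ± 0.14 in WT (adjusted p = 0.931) and 0.23 ± 0.14 in the knockout (adjusted p = 0.336). Hspe1, its partner Hsp10, changed by 0.22 ± 0.15 and 0.14 ± 0.15 and did not pass.

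The other heat shock genes, Hsp90aa1, Hsp90ab1, Dnaja1, Dnajb1, Hsph1, Hspb1 and Hspb6, changed by between -0.18 and 0.40 in WT and between -0.48 and 0.29 in the knockout without passing. Hspb1, the small heat shock protein Hsp25, was the highest of them at 0.40 ± 0.18 in WT (adjusted p = 0.127). It passed with the slide as a block (adjusted p = 0.0181). Its WT groups did not overlap, against 14.8% of all genes that were higher without overlap. Hsp90ab1, the constitutive Hsp90, differed by 0.26 ± 0.12 (adjusted p = 0.147) and also passed with that block (adjusted p = 0.0356). Hsp90ab1 lacked values for replicate 1 in the fed and in the fasted knockout group.

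Among 35 other cytosolic chaperones and cochaperones, 7 rose and 4 fell with fasting in WT, and none rose and 3 fell in the knockout. These are 31.4% against 24.9% of all genes and 8.57% against 11.1%, both near the background. For the knockout in fasted muscle 1 was higher and 6 were lower, or 20% against 12.5%. The fasting changes differed between genotypes in 1, or 2.86% against 2.2%. Hspb3, a small heat shock protein of muscle, fell by 1.47 in WT and by 0.67 in the knockout, and was 1.36 ± 0.18 higher in fasted knockout than in fasted WT muscle. The heat shock factor gene Hsf2 rose by 1.01 ± 0.16 in WT, Dnajb2 by 0.83 ± 0.12 and Ptges3, the Hsp90 cochaperone p23, by 0.70 ± 0.15. Dnajb6, a cochaperone of the muscle Z-disc, was lower in fasted knockout muscle by -0.72 ± 0.09 and was the 1 gene of this list whose fasting changes differed, by -0.63 ± 0.12 (adjusted p = 0.0137). Of 14 genes of the chaperonin TRiC and prefoldin, Cct2 rose in WT by 0.34 ± 0.10, and none passed in the knockout in limma, where 1 had an unadjusted p under 0.05. Of 17 other mitochondrial chaperones and proteases, Clpx rose by 0.89 ± 0.12 and Lonp1 by 0.30 ± 0.10 in WT, and Trap1 by 0.45 ± 0.13 in the knockout. The shares of these last lists were 7.14% and 11.8% in WT, below the 24.9% of all genes. In fed muscle the knockout passed none of the genes of these 6 lists in limma, with 0 to 4 genes of a list at an unadjusted p under 0.05.

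The ER genes and the heat shock genes are set side by side here as a description. The median change of the 22 ER genes minus that of the 16 heat shock genes was -0.09 in WT, from 0.06 and 0.14. It was -0.22 in the knockout, from 0.00 and 0.22. For the knockout it was 0.20 in fed and 0.18 in fasted muscle. Within slides the value for fasting in WT was -0.37 on slide 1 and 0.17 on slide 2, and that for the knockout in fasted muscle turned to -0.12 on slide 2. Of the 22 ER genes, 6 rose and 1 fell in WT, or 31.8% against 24.9% of all genes, and 1 rose in the knockout, or 4.55% against 11.1%. In fasted knockout muscle 3 were lower, or 13.6% against 12.5%, which is near the background. The fasting change differed in 2, or 9.09% against 2.2%. Of the 16 heat shock genes, by their brightest probes, 4 rose in each genotype, or 25% against the same 24.9% and 11.1%. None of the 16 passed for the knockout in fasted muscle or for the difference between the fasting changes. The dimmer probes of Hspa4 passed in limma as higher in fasted knockout muscle (adjusted p = 0.0260 and 0.0298 over all probes). With the slide as a block, the ER genes Ern1 and Herpud1 rose in the knockout as well (adjusted p = 0.0185 and 0.0387). Whether the 2 groups of genes differ in these counts was not tested.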

How the data were processed

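Total RNA of quadriceps was labelled with Cy3 and hybridised to 1-colour Agilent arrays, per the labels' protocols. Quantification used Agilent Feature Extraction 11.0.1.1 and build mm9 per the file headers, whereas the submitters' processing notes name version 9.5. The intensities used are the deposited processed signals, background-subtracted and detrended within each array per the file headers. The deposited 0 or 1 marks of other kinds (above background, saturated, uneven) are the scanner software's. The authors' value table holds scores for 18324 probes. Scores of at least 100, which were 4589 to 4602 per array, equalled the deposited signal times 1 factor per array within 2%. Lower scores were not checked in this way. The scores are linear and uncentred, with a 75th percentile of 100 and column medians of 22 to 25. They served as an alternative, as log2(score + 1).

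Uneven or outlying spots, 0.143% to 3.28% of an array, were left out, and 59305 spots were averaged to 55681 probes. Of these, 28331 had 1 gene symbol and 27350 none, matched by RefSeq accession to a table of build GRCm38.p6. No coordinates of mm9 are given. Probes well above background on all arrays of at least 1 group were retained (28570 probes), and the brightest kept probe stood for a gene. From 45.0% to 75.2% of spots were above background, no spot was saturated, and the number of arrays limits the precision. Log2 signals minus each array's 75th percentile over all spots but controls were fitted with limma 3.58.1 in R 4.3.3 (lmFit, eBayes, 4 group means, 16 arrays, residual degrees of freedom 12). P-values were Benjamini-Hochberg adjusted over 21280 genes. The fit was tested on simulated data with independent noise and no difference between slides. That test cannot cover the difference between slides in these arrays.

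The genes, their lists and the tests were chosen with earlier results of these data known. Any listed gene may be named. Values per array are given for genes that passed, up to 8 per comparison by size, and for Hspa5, Xbp1, Hsf1, Hspa8, Hspd1 and Cryab. Of each pathway list up to 4 passing genes per comparison are named by size. Alternatives changed the scaling, background correction, filter, probe rule, slide, replicate block and arrays used.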

Additional observations from a re-analysis of the deposited data

Results flagged for a closer look

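In 5 of 148 groups of 4 arrays checked over the 38 genes, 1 array lay farther from its nearest neighbour than Dixon's critical value allows. Chance gives about 1 in 20 such groups. Dnajc3, which encodes a cochaperone that curbs Perk, stood at 2.04 in fed knockout replicate 2, below the other 3 arrays at 2.10 to 2.11. Sel1l stood at 1.65 on the same array, above the other 3 at 1.56 to 1.58. In fasted knockout replicate 1, Dnaja1 was at 4.51 against 3.79 to 3.91 and Hsf1 at 3.32 against 2.90 to 2.97. Hspb6, a small heat shock protein of muscle, was at 5.48 in fasted knockout replicate 3 against 7.96 to 8.46 in the other 3.

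The fasting change differed between the genotypes in the interaction test of limma for Edem1, at -2.05 on the log2 scale, and for Dnajb9, at -0.99. Edem1 was higher on 4 of 4 fasted than on all fed WT arrays, and in the knockout the groups overlapped.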

How the results depend on the processing

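The count of genes that passed for fasting in WT was 11, and 5 on slide 1 alone, where fewer arrays were used. For fasting in the knockout it was 5, and 3 with no filter on dim probes, 1 on slide 1, 1 on slide 2 and 2 with the 2 groups alone. For the knockout in fasted muscle it was 3, against 5 with the percentile taken over probes well above background on all arrays, 1 on slide 1 and 5 on slide 2. For the interaction it was 2, against 1 with normexp, 1 with no filter, 0 on each slide alone, and 1 with the percentile taken after uneven spots were left out (chosen after seeing the data). Dnajb9 was the call lost in the normexp, no-filter and added-percentile fits. The fits on a slide alone or on 2 groups alone used fewer arrays, and the fit with no filter tested more genes. The cause of these shifts was not tested. Without 1 array each, the counts ran from 10 to 12 for fasting in WT, 3 to 6 for fasting in the knockout, 3 to 5 for the knockout in fasted muscle and 1 to 3 for the interaction, and the count for the knockout in fed muscle stayed at 0. The value of Hspa4 in WT reversed to -0.14 with the mean of its probes. The ER minus heat shock median was -0.37 on slide 1 and 0.17 on slide 2 for fasting in WT, 0.12 and -0.40 for the interaction, and -0.12 on slide 2 for the knockout in fasted muscle. Without 1 array each it ran from -0.24 to -0.01 for fasting in WT, -0.28 to -0.12 for fasting in the knockout, 0.14 to 0.26 for the knockout in fed and 0.03 to 0.23 in fasted muscle, and -0.20 to -0.00 for the interaction.

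With the replicate number as a block the counts were 13, 7, 0, 3 and 3, in the order fasting in WT, fasting in the knockout, knockout in fed, knockout in fasted and interaction. The numbers were not taken to pair the mice, since the labels name no shared litter or day. Same-numbered arrays, which also share a slide and a row on it, correlated in their deviations from 0.055 to 0.392. Over 0.1 lay 23 of those 24 pairs, and 11 of 16 arrays correlated best with an array of their own number. Same-slide pairs with different numbers lay over 0.1 in 14 of 24 cases. All 48 pairs across slides were below 0, from -0.383 to -0.036. The main fit has no term for the slide. With the slide as a block the counts were 14, 7, 0, 4 and 3. Over all genes, the knockout in fed muscle passed 315 genes, against 176 with normexp, 169 with no filter, 601 with the slide as a block, 160 on slide 1 and 34 on slide 2. The interaction passed 468, against 202 with no filter, 897 with the slide and 789 with the replicate number as a block, 6 and 43 within slides and 244 with the added percentile. Fasting in the knockout passed 2365, against 1418 with no filter, 1514 with the 2 groups alone, and 105 and 1358 within slides. The knockout in fasted muscle passed 2653, against 1337, 484 and 1567 in the latter 3 fits. Fasting in WT passed 5303, against 1366 on slide 1. Scaling moved the share of higher genes among those passing. With the percentile over probes above background on all arrays it went from 50.4% to 37.1% for fasting in WT, from 43.5% to 62.5% for the knockout in fasted muscle and from 33.1% to 51.5% for the interaction. That scaling put the median of all genes at -0.11, 0.10 and 0.10.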
